A study of Mus musculus with 4 samples.

Results

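Fecal bacteria of mice injected with ampicillin into a vein were compared, at day 4, with those of mice injected with phosphate-buffered saline (PBS) into a vein. The members were the day 4 libraries that the sample sheets list as IV (intravenous) with ampicillin or with PBS. There were 5 IV ampicillin libraries and 6 IV PBS libraries among 91 libraries of day 4 and 198 in all, the rest being day 0 stool, other antibiotics and other routes. All mice were C57BL6/J, WT in genotype, 8 to 12 weeks old and kept under SPF conditions on standard chow. IV ampicillin mice received 2.5 mg of ampicillin in 100 µl of PBS per injection, and IV PBS mice received 100 µl of PBS alone. Over 3 days there were 2 injections daily, with a last one on day 4 that came 4 hours before the mice were killed. The V4 region of the 16S rRNA gene was sequenced, and every value below is a share of a library's 16S reads unless it is named otherwise. Such shares do not tell a loss of one bacterium from growth of the others.

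At day 4, the counts of IV ampicillin replicates 3 and 4 could not be told apart beyond sampling noise (chi-square of 1.29 per degree of freedom over taxa, p = 0.153). They were averaged and counted as 1 sample, which gave 4 IV ampicillin samples against 6 IV PBS samples. The other pairs of IV ampicillin libraries had at least 242.6 per degree of freedom. The day 0 libraries of the same 2 mice were also the closest pair of their group, at 1.81 per degree of freedom, against at least 9.70 for the other pairs. All IV ampicillin libraries and IV PBS replicates 1 to 3 came from sequencing run ok122, and IV PBS replicates 4 to 6 came from run SB1. IV ampicillin libraries held 12036, 3621, 12848, 13521 and 29766 reads in replicates 1 to 5, and IV PBS libraries held 8556 to 38424. A taxon with no read in an IV ampicillin library may still have made up between 0.0101% and 0.0829% of it, depending on depth, which is the share of 3 reads. Such limits allow for counting error alone, because reads made by PCR do not each stand for a separate molecule. The smallest values above 0 were 3, 4, 3, 2 and 2 reads in IV ampicillin replicates 1 to 5. If lower counts were dropped before the table was made, these limits are too low and the fold bounds below are too high. Genera known from reagents, skin and food made up 0% of IV ampicillin replicates 1 to 4 and 0.171% of replicate 5, against 0% to 0.126% of IV PBS libraries.

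Ampicillin is a beta-lactam that blocks the building of the bacterial cell wall, and part of an injected dose reaches the gut in bile. Most Firmicutes have a single membrane under a thick wall. In the mouse colon they are mainly strict anaerobes of the Lachnospiraceae, Oscillospiraceae and Ruminococcaceae, which ferment fibre to short-chain fatty acids, butyrate among them. Bacteroidota have an outer membrane and live largely on polysaccharides of the diet and of mucus. Muribaculaceae, Prevotella, Bacteroides, Phocaeicola, Parabacteroides, Alistipes and Odoribacter all belong to the Bacteroidota. Genus and family names with letter or number suffixes are printed as the deposited table gives them.

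Firmicutes fell with IV ampicillin, Bacteroidota made up most reads in both groups, and fewer taxa of both were seen. Firmicutes made up 0.931%, 0%, 0.342%, 0.340% and 6.47% of reads in IV ampicillin replicates 1 to 5, against 4.96% at the lowest, 10.02% at the median and 11.2% at the highest in IV PBS. Replicate 5 lay inside the IV PBS range and every other IV ampicillin library lay below it. The mean was 1.94% ± 3.05 with IV ampicillin (SD, n = 4) and 8.67% ± 2.78 with IV PBS (SD, n = 6). The difference of -6.74 percentage points passed (two-sided exact permutation test, p = 0.0286, adjusted p = 0.0333 over 7 summary values, smallest possible p = 0.00952). Within run ok122 alone it was -6.87 points. It no longer passed when IV ampicillin replicate 1 or 2 was left out (-6.40 and -6.09, adjusted p = 0.0833 by exact permutation) or the averaged replicates 3 and 4 (-6.21, adjusted p = 0.0714). The same held without IV PBS replicate 1, 3, 4 or 5 (-6.53 to -6.24, adjusted p = 0.0556 by exact permutation).

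Bacteroidota made up 92.5%, 95.4%, 86.7%, 87.2% and 93.4% of reads in IV ampicillin replicates 1 to 5, against 88.1%, 89.3% and 94.5% at the lowest, median and highest of IV PBS. The groups overlapped, with IV ampicillin libraries both above and below the IV PBS range. The mean was 92.1% ± 3.63 with IV ampicillin (SD, n = 4) and 90.0% ± 2.36 with IV PBS (SD, n = 6), a difference of 2.12 percentage points that did not pass (exact permutation test, p = 0.276). The log2 ratio of Firmicutes to Bacteroidota averaged -7.91 ± 3.93 with IV ampicillin and -3.45 ± 0.559 with IV PBS. Its difference of -4.46 passed (exact permutation test, adjusted p = 0.0333). Without IV ampicillin replicate 2, which held no Firmicutes read, it was -2.69 and did not pass (adjusted p = 0.0833 by exact permutation).

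**Figure D1:**
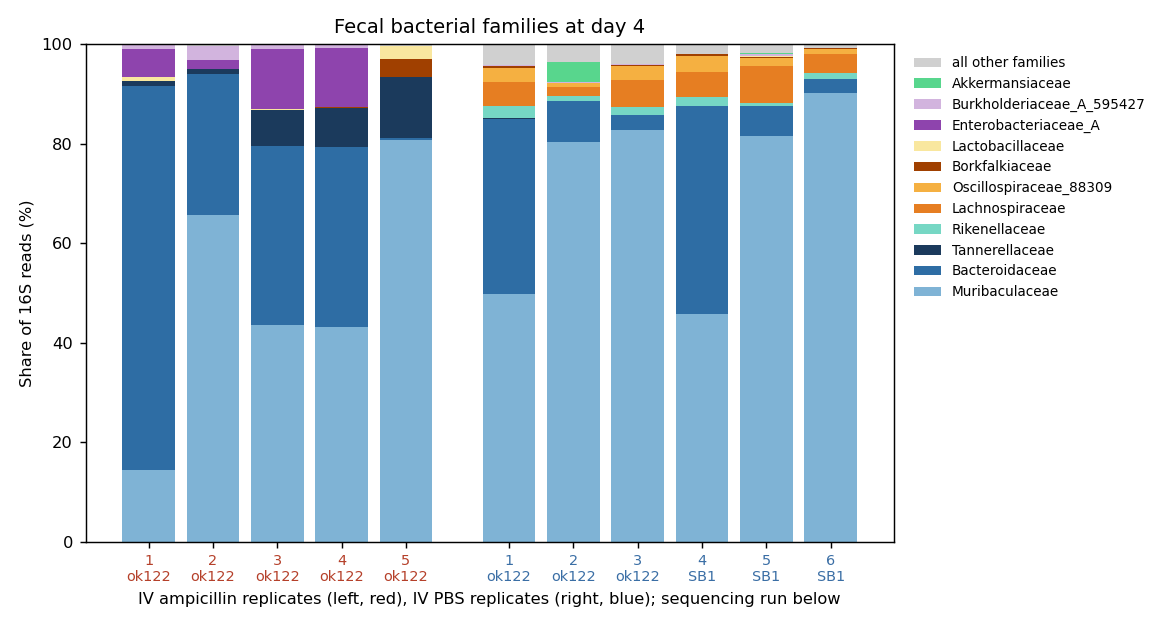
Stacked bars give the share of 16S reads (%) of 11 bacterial families and of all others in each day 4 library, with IV ampicillin replicates on the left, IV PBS replicates on the right and the sequencing run under each bar. Orange bands of Lachnospiraceae and Oscillospiraceae_88309 stand in every IV PBS bar and are not visible in IV ampicillin bars, while Muribaculaceae range from 14.4% to 80.8% among IV ampicillin libraries.

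Far fewer Firmicutes taxa were seen with IV ampicillin. A taxon here is a row of the table, named to the lowest rank given, and libraries were thinned to 3621 reads so that depth did not set the count. Firmicutes taxa numbered 2.77, 0, 4.31, 4.27 and 6.07 on average over draws in IV ampicillin replicates 1 to 5, against 23.9, 47.7 and 62.8 at the lowest, median and highest of IV PBS. Every IV ampicillin library lay below every IV PBS library. The means were 3.28 ± 2.57 (SD, n = 4) with IV ampicillin and 46.2 ± 14.0 (SD, n = 6) with IV PBS, and the difference of -42.9 taxa passed (exact permutation test, p = 0.00952, adjusted p = 0.0167). Without thinning, IV ampicillin libraries held 3, 0, 5, 5 and 8 Firmicutes taxa and IV PBS libraries held 25 to 85.

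Fewer Bacteroidota taxa were seen as well. Thinned IV ampicillin libraries held 18.2, 21, 16.9, 16.9 and 12.5 Bacteroidota taxa in replicates 1 to 5, against 28.2, 31.5 and 34.0 at the lowest, median and highest of IV PBS. The groups did not overlap. The means were 17.1 ± 3.56 and 31.4 ± 2.48 in the same order (SD, n = 4 and 6), a difference of -14.2 taxa that passed (exact permutation test, p = 0.00952, adjusted p = 0.0167). The Shannon index, a measure of diversity that weighs number and evenness of taxa, averaged 2.07 ± 0.300 with IV ampicillin and 2.89 ± 0.197 with IV PBS. It fell by 0.818 (exact permutation test, adjusted p = 0.0167), and the groups did not overlap. Summed to families the difference in the index was -0.026 (exact permutation test, p = 0.867).

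**Figure D2:**
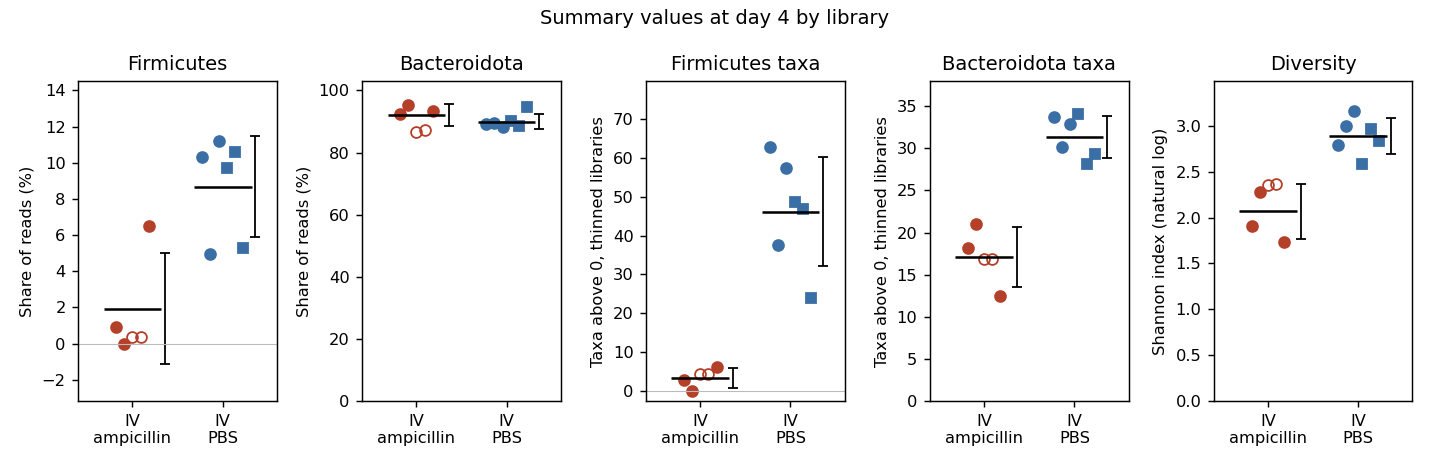
Each panel plots 1 summary value per day 4 library, with IV ampicillin (red) left of IV PBS (blue). Open circles are IV ampicillin replicates 3 and 4, squares are libraries of run SB1, lines are group means over 4 and 6 samples, and bars are 1 SD. Firmicutes taxa average 3.28 with IV ampicillin and 46.2 with IV PBS, while Bacteroidota hold 92.1% and 90.0% of reads.

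Composition differed between the groups, and IV ampicillin mice also differed widely from one another. In Bray-Curtis distances, which run from 0 for equal to 1 for fully different communities, group explained an R2 of 0.447 of the variation (exact permutation of group labels, p = 0.00476, the smallest possible, adjusted p = 0.0167). Distances ran from 0.446 to 0.868 between pairs of IV ampicillin samples, from 0.564 to 0.906 between the groups, and from 0.164 to 0.473 between pairs of IV PBS samples. The mean distance to the group centroid was 0.414 with IV ampicillin and 0.219 with IV PBS. The test responds to such unequal scatter as well as to a shift, and the share of each was not tested. Summed to families, R2 was 0.254 (p = 0.105 by exact permutation).

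Across genera the calls ran mostly downward. Each genus was fitted by limma as log2(percent + 0.01) over 89 day 4 samples, with an adjusted p of 0.05 as the threshold. A log2 change is on this scale and understates changes of rare genera. With IV ampicillin, 35 of 95 genera tested fell (36.8%) and 5 rose (5.26%). The median log2 change over all 95 was -1.65. When read counts were centred within each library instead, that median moved up by 1.76 to 0.11, and 15 genera were called lower and 9 higher. Within run ok122 alone, 37 genera were called lower and 5 higher.

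Firmicutes genera were mostly absent from IV ampicillin libraries. Of 98 Firmicutes genera with any read in IV PBS, 92 had none in any IV ampicillin library. The count was 4 of 17 among Bacteroidota genera and 112 of 138 among genera of all phyla. Many Firmicutes genera were rare, so the count was repeated over genera whose IV PBS mean exceeded 0.0829%, the share of 3 reads in the shallowest IV ampicillin library. There, 21 of 23 Firmicutes genera and 3 of 14 Bacteroidota genera were at 0 in all IV ampicillin libraries. At the level of taxa above the same cut, the counts were 23 of 25 and 9 of 29. Genera and taxa entered these counts through their IV PBS reads, so the counts can show only loss. The same shares over genera or taxa of all phyla above this cut were not counted. Outside these phyla, Akkermansia and UBA2813 (IV PBS means of 0.732% and 0.126%) were above the cut and at 0 in all IV ampicillin libraries. Desulfovibrio_R_446353 and Parasutterella (0.105% and 0.160%) were above the cut and had reads in IV ampicillin. In the other direction, 3 Firmicutes genera had reads in IV ampicillin and none in IV PBS, and the count over all phyla was also 3. Aerococcus (0.00672%) and Staphylococcus (0.0941%, a genus of the reagent, skin and food list) had reads in replicate 5 alone, the deepest library of the group. The other was Ligilactobacillus. The 2 Firmicutes exceptions above the cut were Borkfalkia and Dysosmobacter.

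Of 217 Firmicutes genera in the table, 63 were frequent enough to be tested, and 26 of them fell and 1 rose. Their median log2 change was -1.71, or -0.68 when genera at 0 in every IV ampicillin sample were set at the bound that 3 reads allow. Over all 95 genera the same medians were -1.65 and -0.73, so neither the share that fell nor the median set Firmicutes apart from all genera tested. With centring, 11 of the 63 Firmicutes genera were called lower and 4 higher, beside 15 lower and 9 higher of all 95.

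Lachnospiraceae, a large family of fibre fermenters that includes butyrate producers, had no read in any of the 5 IV ampicillin libraries. In IV PBS the family made up 1.77% of reads at the lowest, 4.96% at the median and 7.503% at the highest, so the groups did not overlap. The IV PBS mean of 4.74% ± 1.90 (SD, n = 6) was at least 135-fold above the share of 3 reads averaged over the IV ampicillin samples, 0.0352%, which is the floor used for every such bound here. The limma log2 change was -8.77 ± 1.43 (SE, adjusted p = 1.09e-06). Among 39 families tested, 12 fell (30.8%) and 3 rose (7.69%).

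All 38 Lachnospiraceae genera with reads in IV PBS were at 0 in every IV ampicillin library. Of 27 tested, 13 fell and 14 did not pass, beside 35 of 95 genera of all families that fell. With centring, 5 of the 27 were called lower, beside 15 of 95 genera of all families. Since 112 of 138 genera of all families were at 0 too, these counts alone do not set the family apart. Unclassified Lachnospiraceae had 0.543%, 0.908% and 1.80% at the lowest, median and highest of IV PBS and were at least 29.1-fold lower with IV ampicillin (limma adjusted p = 0.000159). COE1 had 0.174%, 0.804% and 1.397% in IV PBS and was at least 20.5-fold lower (limma adjusted p = 2.87e-05). Both genera had reads in every IV PBS library, so the groups did not overlap.

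Acetatifactor, first described from the mouse intestine, varied more within IV PBS. It had 0% at the lowest, 0.564% at the median and 2.48% at the highest IV PBS library, and was at least 23.9-fold lower with IV ampicillin by the means (limma adjusted p = 0.00714). Within run ok122 it did not pass (log2 change of -3.59, limma adjusted p = 0.0813), nor on centring (-3.40, limma adjusted p = 0.165). Eubacterium_R of the Acutalibacteraceae had 0.0586%, 0.185% and 0.326% in IV PBS and was at least 5.19-fold lower (limma adjusted p = 0.00044), but did not pass as change from day 0 (-2.77, limma adjusted p = 0.136).

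Oscillospiraceae, a family of anaerobes many of which grow slowly on host and diet compounds, had reads in only 1 IV ampicillin library. The family made up 0.0222% of IV ampicillin replicate 4 and 0% of the other 4, against 0.899%, 2.29% and 3.20% at the lowest, median and highest of IV PBS. The groups did not overlap, and the family fell (limma log2 change of -7.26 ± 1.38, SE, adjusted p = 1.14e-05). Of its 6 genera tested, 5 fell and 1 did not pass, beside 35 of 95 genera of all families that fell. With centring, 4 of the 6 were called lower, beside 15 of 95 genera of all families.

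Dysosmobacter, an Oscillospiraceae genus with a butyrate-producing human member, was the source of those reads. It had 0.0222% in IV ampicillin replicate 4 and 0% in the others, against 0.339%, 1.038% and 1.65% at the lowest, median and highest of IV PBS (limma log2 change of -6.18 ± 1.30, SE, adjusted p = 0.000159). Unclassified Oscillospiraceae_88309 were at 0 in all IV ampicillin libraries and had 0.122% to 0.884% in IV PBS, at least 15.4-fold lower (limma adjusted p = 0.000159). Lawsonibacter was likewise at 0 against 0.0584% to 0.563%, at least 7.72-fold lower (limma adjusted p = 0.000436). As change from day 0, Lawsonibacter did not pass (-4.47, limma adjusted p = 0.0600).

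Smaller Firmicutes families fell as well. CAG-508, known only by its genome name, had 0% in every IV ampicillin library against 0.164%, 0.718% and 1.15% in IV PBS, and was at least 19.0-fold lower (limma adjusted p = 6.5e-06). Its unclassified members were at least 5.42-fold lower (limma adjusted p = 0.000146), but did not pass as change from day 0 (-3.13, limma adjusted p = 0.129). Ruminococcaceae, which include degraders of cellulose and resistant starch, were at 0 in every IV ampicillin library against 0%, 0.221% and 0.488% in IV PBS (limma adjusted p = 0.00244). All 8 Ruminococcaceae genera with reads in IV PBS were at 0, beside the 112 of 138 of all families, and 2 of 5 tested fell, a share near the 36.8% of all genera. Acutalibacteraceae, Dehalobacteriaceae and UBA660 also fell, at least 5.59-fold, 1.604-fold and 6.24-fold (limma adjusted p of 0.000187, 0.00343 and 0.00187).

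**Figure D3:**
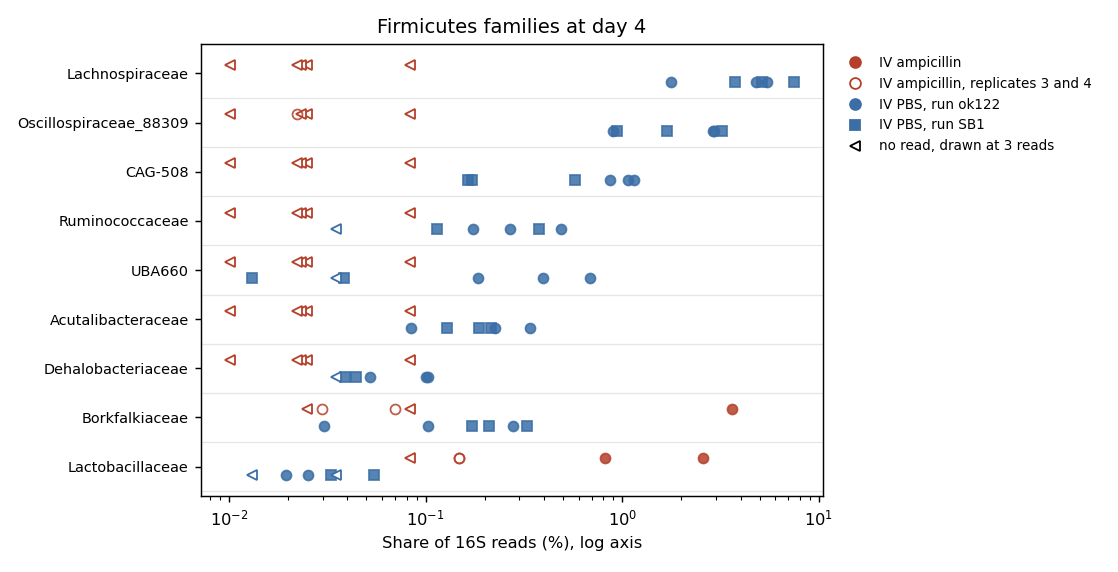
Each row is a Firmicutes family and each symbol a day 4 library at its share of 16S reads (%, log axis), with IV ampicillin (red) above IV PBS (blue). Left-pointing triangles are libraries with no read, drawn at the share of 3 reads. Lachnospiraceae are triangles in every IV ampicillin library and lie between 1.77% and 7.503% in IV PBS, whereas Lactobacillaceae are higher in 4 of 5 IV ampicillin libraries.

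Beside Dysosmobacter, a few other Firmicutes were seen with IV ampicillin. Ligilactobacillus, a genus of host-adapted lactic acid bacteria, had 0.814%, 0%, 0.148%, 0.148% and 2.58% in IV ampicillin replicates 1 to 5 and no read in any IV PBS library. Every IV ampicillin library but replicate 2 stood above IV PBS. It was the 1 Firmicutes genus that rose (limma log2 change of 4.59 ± 1.07, SE, adjusted p = 0.000386), and Lactobacillaceae as a family rose with it (0.886% ± 1.19 against 0.0221% ± 0.0209, limma adjusted p = 0.0211).

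Borkfalkia, a Clostridia genus, had 0%, 0%, 0.0700%, 0.0296% and 3.59% in IV ampicillin replicates 1 to 5, against 0.0304%, 0.191% and 0.326% at the lowest, median and highest of IV PBS. Replicate 5 stood far above IV PBS, and replicates 1 and 2 were at 0. The difference did not pass (limma log2 change of -1.24, adjusted p = 0.542). The 6.47% of Firmicutes in replicate 5 thus held 3.59% Borkfalkia and 2.58% Ligilactobacillus. CAG-314 (0% to 0.101% of IV ampicillin libraries), unclassified CAG-552 (0% to 0.0666%) and Pelethenecus (0% to 0.0831%) were also seen and did not pass (limma adjusted p of 0.529, 0.987 and 0.575).

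Within Bacteroidota, 17 of 28 genera were tested, of which 8 fell, 3 rose and 6 did not pass, beside 35 of 95 genera of all phyla that fell and 5 that rose. The median log2 change of the 17 was -2.99, or -2.41 with bounds, beside -1.65 and -0.73 over all genera. With centring, 4 of the 17 were called lower and 4 higher, beside 15 lower and 9 higher of 95 genera of all phyla. At the level of taxa, 18 of 37 Bacteroidota taxa fell and 4 rose, against 48 of 133 of all taxa that fell (36.1%) and 6 that rose (4.51%).

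The 3 that rose were Bacteroides_H, Phocaeicola_A_858004 and Parabacteroides_B_862066, genera of bile-tolerant polysaccharide users. Bacteroides_H made up 37.1%, 18.6%, 28.0%, 27.9% and 0.185% of IV ampicillin replicates 1 to 5, against 0.152%, 0.208% and 1.21% at the lowest, median and highest of IV PBS. It was the leading or second genus in replicates 1, 3 and 4, and in replicate 5 it lay inside the IV PBS range. The log2 change was 4.68 ± 1.46 (SE, limma adjusted p = 0.00615). As change from day 0 it did not pass (3.41, limma adjusted p = 0.136). Its taxa B. rodentium and B. intestinalis rose (limma adjusted p of 0.0262 and 0.00128), and its unclassified taxon, 26.9% of replicate 3, did not pass (limma adjusted p = 0.0539).

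Phocaeicola_A_858004, here all of the species P. vulgatus, a common gut species of humans and mice, followed the same samples. It made up 39.8%, 6.16%, 4.90%, 5.31% and 0% of IV ampicillin replicates 1 to 5, against 0%, 0.0247% and 0.0838% at the lowest, median and highest of IV PBS. Replicates 1 to 4 stood above every IV PBS library and replicate 5 had no read. The log2 change was 5.89 ± 1.68 (SE, limma adjusted p = 0.00282).

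Parabacteroides_B_862066, of the Tannerellaceae, was higher in every IV ampicillin library. It made up 0.972%, 1.19%, 7.21%, 7.84% and 12.4% of replicates 1 to 5, against 0%, 0.0389% and 0.0536% at the lowest, median and highest of IV PBS. The groups did not overlap, and replicate 5, with the least Bacteroides_H of the group, was the highest. The log2 change was 6.52 ± 1.48 (SE, limma adjusted p = 0.000295). In replicates 3 and 4 most of it was P. goldsteinii (6.43% and 6.94%), which rose (limma adjusted p = 0.0262), and in replicate 5 all of it was a taxon with no species name.

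Prevotella, a user of plant fibre, belongs to the Bacteroidaceae with both genera that rose, and it fell. It made up 0.199%, 3.62%, 2.97%, 2.92% and 0.0470% of IV ampicillin replicates 1 to 5, against 2.69%, 6.998% and 41.2% at the lowest, median and highest of IV PBS. The groups overlapped between 2.69% and 3.62%. The log2 change was -3.90 ± 1.35 (SE, limma adjusted p = 0.0135). It did not pass without IV ampicillin replicate 1 (-3.39, limma adjusted p = 0.0627) or replicate 5 (-2.76, limma adjusted p = 0.127), nor on centring (-2.05, limma adjusted p = 0.170). Bacteroidaceae as a family made up 0.232% to 77.1% of IV ampicillin libraries and 2.89% to 41.8% of IV PBS libraries, and did not pass (limma log2 change of 0.34, adjusted p = 0.874).

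Muribaculaceae, the family that dominates the mouse gut, made up 14.4%, 65.5%, 43.6%, 43.2% and 80.8% of IV ampicillin replicates 1 to 5, against 45.7%, 80.9% and 90.1% at the lowest, median and highest of IV PBS. The ranges overlapped and the family did not pass (limma log2 change of -0.70, adjusted p = 0.687). Its 8 genera all had reads in both groups, and 3 of them fell, a share near the 36.8% of all genera. At the level of taxa, 12 of its 19 tested fell and 0 rose by limma, beside 48 of 133 of all taxa that fell (36.1%). An unadjusted p under 0.05 by limma, in either direction, was seen in 13 of the 19, beside 68 of 133 of all taxa.

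UBA3263, a Muribaculaceae genus known by its genome name, had 0.0249%, 0.304%, 0%, 0% and 0.0168% in IV ampicillin replicates 1 to 5, against 1.47%, 2.20% and 3.89% at the lowest, median and highest of IV PBS. The groups did not overlap (limma log2 change of -5.84 ± 1.31, SE, adjusted p = 0.000295). CAG-873 had 0.191%, 0.249%, 0%, 0% and 0% against 0.570%, 1.33% and 1.73%, also without overlap (limma log2 change of -4.61 ± 1.34, SE, adjusted p = 0.0032). As change from day 0, CAG-873 did not pass (-3.63, limma adjusted p = 0.122). CAG-485 divided the IV ampicillin mice, with 24.7% in replicate 2 and 0.590%, 0.397%, 0.451% and 0.225% in replicates 1, 3, 4 and 5, against 10.3%, 15.7% and 20.04% in IV PBS. Replicate 2 was above every IV PBS library and the others were below. Its log2 change was -3.72 ± 1.53 (SE, limma adjusted p = 0.0422). It did not pass without IV ampicillin replicate 1 (-3.42), the averaged replicates 3 and 4 (-3.26) or replicate 5 (-2.97). The same held without IV PBS replicate 2 (-3.69), 3 (-3.66) or 5 (-3.70), the limma adjusted p being 0.0509 to 0.142 in these fits. Over all alternatives, of processing as well as of samples, CAG-485 lost its call in 11 and kept it in 12.

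Within genera of this family, some taxa fell and others did not pass. Duncaniella as a genus had 0.897%, 9.25%, 8.61%, 7.86% and 0.262% in IV ampicillin replicates 1 to 5, against 10.96%, 16.7% and 24.3% in IV PBS, and did not pass although the groups did not overlap (limma log2 change of -2.99 ± 1.54, SE, adjusted p = 0.0962). Its species D. dubosii held most of what remained (4.56% ± 4.70 against 8.46%, limma adjusted p = 0.246). D. muris had reads only in IV ampicillin replicate 5 (0.0605%), against 0.871% to 3.28% in IV PBS, and fell by 7.05 on the log2 scale (limma adjusted p = 0.000214). Duncaniella sp001689575 fell by 7.32 (limma adjusted p = 0.000211), with 0.0875% ± 0.147 against 6.44%. These species contrasts within the genus were not tested against each other.

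Paramuribaculum had 0.673%, 1.10%, 0.148%, 0.229% and 9.58% in IV ampicillin replicates 1 to 5, against 2.27%, 7.03% and 11.7% in IV PBS. Replicate 5 lay inside the IV PBS range and the others below it. The genus did not pass (limma log2 change of -2.41, adjusted p = 0.0962), and passed without replicate 5 (-3.45, adjusted p = 0.0306). Its species P. intestinale was at 0 in all IV ampicillin libraries against 1.70% to 4.36% in IV PBS, at least 79.2-fold lower (limma adjusted p = 1.8e-09), while Paramuribaculum sp001689565 held all of the 9.58% in replicate 5.

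Muribaculum had 2.02%, 7.76%, 12.4%, 12.5% and 0.272% in IV ampicillin replicates 1 to 5, against 4.55%, 7.63% and 11.2% in IV PBS, and did not pass (limma log2 change of -1.43, adjusted p = 0.388, with a sign that turned to 0.48 on centring). M. intestinale held 10.3% of both replicates 3 and 4. Unclassified Muribaculaceae had 4.25%, 1.049%, 6.50%, 6.49% and 13.4% against 9.74%, 14.7% and 17.3%, and did not pass (limma log2 change of -1.66, adjusted p = 0.313, turning to 0.26 on centring).

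UBA7173, also of the Muribaculaceae, was at high shares in IV ampicillin mice. It had 5.76%, 21.1%, 15.5%, 15.7% and 57.0% in replicates 1 to 5, against 3.30%, 7.40% and 10.9% at the lowest, median and highest of IV PBS. Every IV ampicillin library but replicate 1 stood above the IV PBS range. It did not pass (limma log2 change of 1.49 ± 1.44, SE, adjusted p = 0.385), and passed on centring (3.41, limma adjusted p = 0.0441). In replicate 5, UBA7173 sp002491305 made up 39.8% and UBA7173 sp004102805 made up 17.2%.

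Bacteroidota genera outside these families fell too. Alistipes_A_871400, a bile-tolerant genus of the Rikenellaceae, was at 0 in all 5 IV ampicillin libraries, against 0.375%, 1.24% and 2.37% at the lowest, median and highest of IV PBS, at least 36.6-fold lower (limma adjusted p = 2.14e-05). All 3 Rikenellaceae genera seen in IV PBS were at 0, beside 112 of 138 genera of all families, so this count alone does not set the family apart. Unclassified Rikenellaceae were at least 2.56-fold lower (limma adjusted p = 0.00045). Unclassified Rikenellaceae did not pass on centring (-2.38, limma adjusted p = 0.0602) or as change from day 0 (-3.52, limma adjusted p = 0.0837). Odoribacter_865974, a producer of short-chain fatty acids of the Marinifilaceae, was at 0 in all against 0.0608%, 0.247% and 0.463%, at least 7.69-fold lower (limma adjusted p = 0.000596), but did not pass as change from day 0 (-4.41, limma adjusted p = 0.0723). Cryptobacteroides had 0.331% in IV ampicillin replicate 2 alone, against 0.0781%, 0.242% and 1.15% in IV PBS. It fell by 3.38 on the log2 scale (limma adjusted p = 0.033). It did not pass without IV ampicillin replicate 1, 3 and 4 averaged, or 5 (-2.96 each). The same held without IV PBS replicate 1 (-2.94), 3 (-3.26) or 4 (-3.20), the limma adjusted p being 0.0518 to 0.105 in these fits. Over all alternatives, of processing as well as of samples, Cryptobacteroides lost its call in 9 and kept it in 14.

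**Figure D4:**
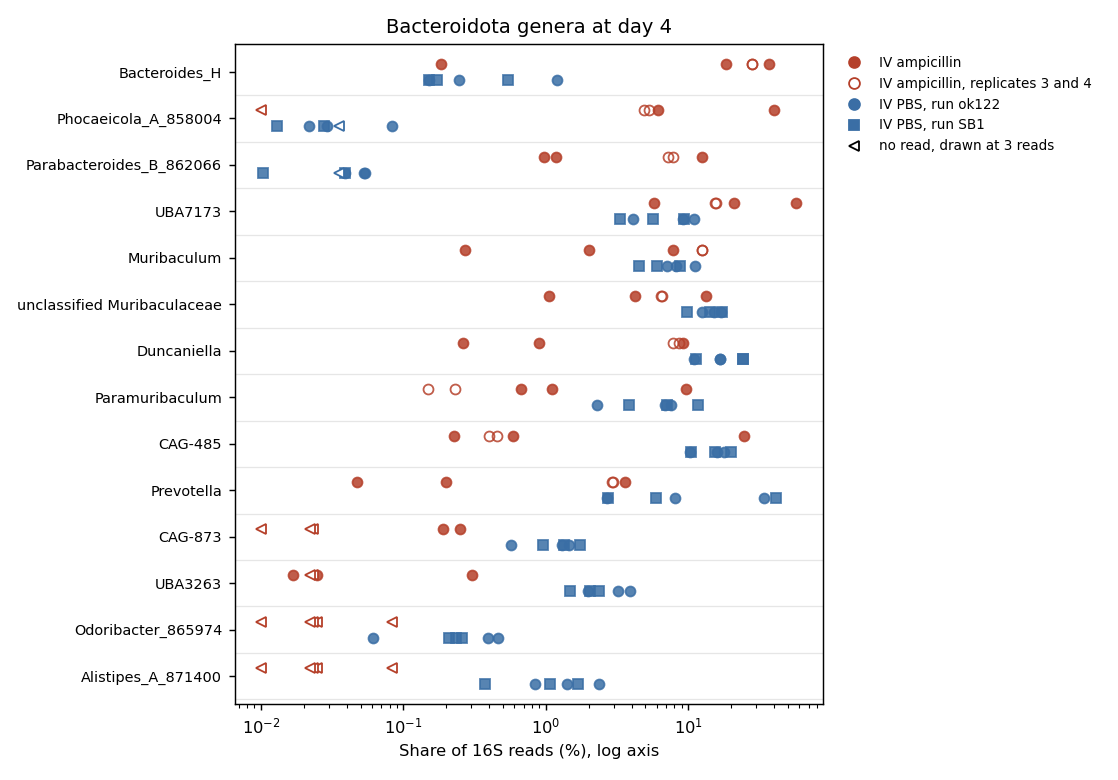
Each row is a Bacteroidota genus and each symbol a day 4 library at its share of 16S reads (%, log axis), with IV ampicillin (red) above IV PBS (blue) and triangles for libraries with no read, drawn at the share of 3 reads. Parabacteroides_B_862066 is to the right of IV PBS in every IV ampicillin library, Alistipes_A_871400 and Odoribacter_865974 are triangles in all of them, and CAG-485 divides them, with 24.7% in replicate 2 and under 1% in the others.

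Proteobacteria, the phylum of Escherichia, made up 6.56%, 4.61%, 12.9%, 12.4% and 0.0773% of IV ampicillin replicates 1 to 5, against 0%, 0.225% and 0.479% at the lowest, median and highest of IV PBS. Replicates 1 to 4 stood above every IV PBS library, and replicate 5 lay inside their range. The means of 5.97% ± 5.20 and 0.221% ± 0.185 in the same order gave an exact permutation p of 0.0476, and 0.105 after adjustment over 11 phyla. No phylum passed after that adjustment, and 5 had an unadjusted p under the threshold. With 4 against 6 samples the smallest possible exact p is 0.00952, so 1 phylum alone at that p could not pass over 11 phyla. Failing to pass therefore does not show that a phylum was unchanged. Firmicutes_A, the branch that holds the Clostridia, had 0.989% ± 1.84 against 8.29% ± 2.83 (exact permutation p = 0.00952, adjusted p = 0.105). Firmicutes_D, the branch of the Bacilli, had 0.947% ± 1.25 against 0.325% ± 0.310 (exact permutation p = 0.352).

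Escherichia_710834, a facultative anaerobe with an outer membrane, held most of the Proteobacteria share by the IV ampicillin means (4.82% of 5.97%). In replicate 2 Parasutterella had more, and in replicate 5 the 0.0773% was all Burkholderia, a genus of the reagent list. Escherichia_710834 made up 5.57%, 1.82%, 12.0%, 11.7% and 0% of IV ampicillin replicates 1 to 5. Among IV PBS libraries it had reads in replicate 1 alone (0.0419%). It rose (limma log2 change of 6.32 ± 1.66, SE, adjusted p = 0.00128). Parasutterella, an asaccharolytic genus of the Burkholderiales, had 0.989%, 2.79%, 0.864%, 0.629% and 0% against 0%, 0.138% and 0.445% in IV PBS. It did not pass (limma log2 change of 1.95, adjusted p = 0.195), and passed without replicate 5 (3.70, adjusted p = 0.0163).

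Akkermansia, a mucin degrader of the Verrucomicrobiota, was at 0 in all IV ampicillin libraries. In IV PBS it had 4.06% in replicate 2 and at most 0.294% elsewhere, and it did not pass (limma log2 change of -2.79 on the family, adjusted p = 0.263). Desulfovibrionaceae, which reduce sulfate, fell (0.0243% ± 0.0422 against 0.115% ± 0.0685, limma adjusted p = 0.0387). Cyanobacteria were at 0 against 0.205% ± 0.318 in IV PBS (exact permutation p = 0.143).

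IV ampicillin replicate 5 stood apart from the other samples of its group. It alone had no Escherichia_710834, Phocaeicola_A_858004 or Parasutterella read, and it had the highest UBA7173, Parabacteroides_B_862066, Borkfalkia and Ligilactobacillus shares of the group. It was also the deepest library of its group, with 29766 reads, and the 1 IV ampicillin library with reagent, skin and food genera above 0; the part of these in its composition was not tested. Without it, 31 genera were called lower and 6 higher, 35 of them shared with the calls over all samples.

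The same mice had been sampled at day 0, before treatment, which shows what each started with. The sample sheets number mice differently on the 2 days, so days were joined by mouse name. Several day 0 libraries were shallow: IV ampicillin mice had 629 to 10561 reads and IV PBS mice 529 to 13948. Firmicutes averaged 22.9% ± 14.4 at day 0 and 1.94% at day 4 in IV ampicillin mice, and 16.0% ± 8.05 at day 0 and 8.67% at day 4 in IV PBS mice. The share was lower at day 4 in 4 of 4 IV ampicillin samples and in 4 of 6 IV PBS mice. The change was -21.0 percentage points with IV ampicillin and -7.32 with IV PBS, and the difference between them did not pass (exact permutation test, p = 0.0762, adjusted p = 0.107). In the log2 ratio of Firmicutes to Bacteroidota the changes of -5.98 and -0.85 did differ (exact permutation test, p = 0.00952, adjusted p = 0.0167).

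Lachnospiraceae show the starting point most plainly. IV ampicillin mice 1 to 5 had 30.7%, 10.47%, 7.96%, 11.4% and 20.02% at day 0 and 0% at day 4. IV PBS mice averaged 12.1% ± 5.54 at day 0 and 4.74% at day 4, lower in 4 of 6. Rikenellaceae were present in every IV ampicillin mouse at day 0, at 0.500% to 0.805%, and in none at day 4. In IV PBS mice they averaged 1.43% at day 0 and 1.39% at day 4. Prevotella made up 22.6% to 49.2% of every IV ampicillin mouse at day 0 and at most 3.62% at day 4. IV PBS mice had 13.1% to 32.4% at day 0 and 2.69% to 41.2% at day 4. The share was lower at day 4 in 4 of 6 IV PBS mice too, and their mean went from 22.9% to 15.8%. IV PBS mice 3 and 6 ended at 2.69% and 2.73%, below that 3.62%.

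The genera that rose had been scarce. Bacteroides_H made up 0.0758%, 0.215%, 0%, 1.27% and 0.334% of IV ampicillin mice 1 to 5 at day 0. Phocaeicola_A_858004 and Parabacteroides_B_862066 had reads only in mouse 1 at day 0, at 0.0663% and 0.0473%. Mouse 1 had the deepest day 0 library of the group. The share of 3 reads in mice 2 to 5 was 0.161%, 0.144%, 0.477% and 0.0834%, so a 0 in these mice does not show absence at such shares. Escherichia_710834 had no read at day 0 in any IV ampicillin or IV PBS mouse of this comparison. UBA7173 averaged 4.03% at day 0 in IV ampicillin mice, with no mouse over 6.39%, and 5.37% in IV PBS mice. CAG-485 averaged 13.7% ± 6.26 at day 0 in IV ampicillin mice and was lower at day 4 in 3 of 4 samples, replicate 2 being the exception.

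**Figure D5:**
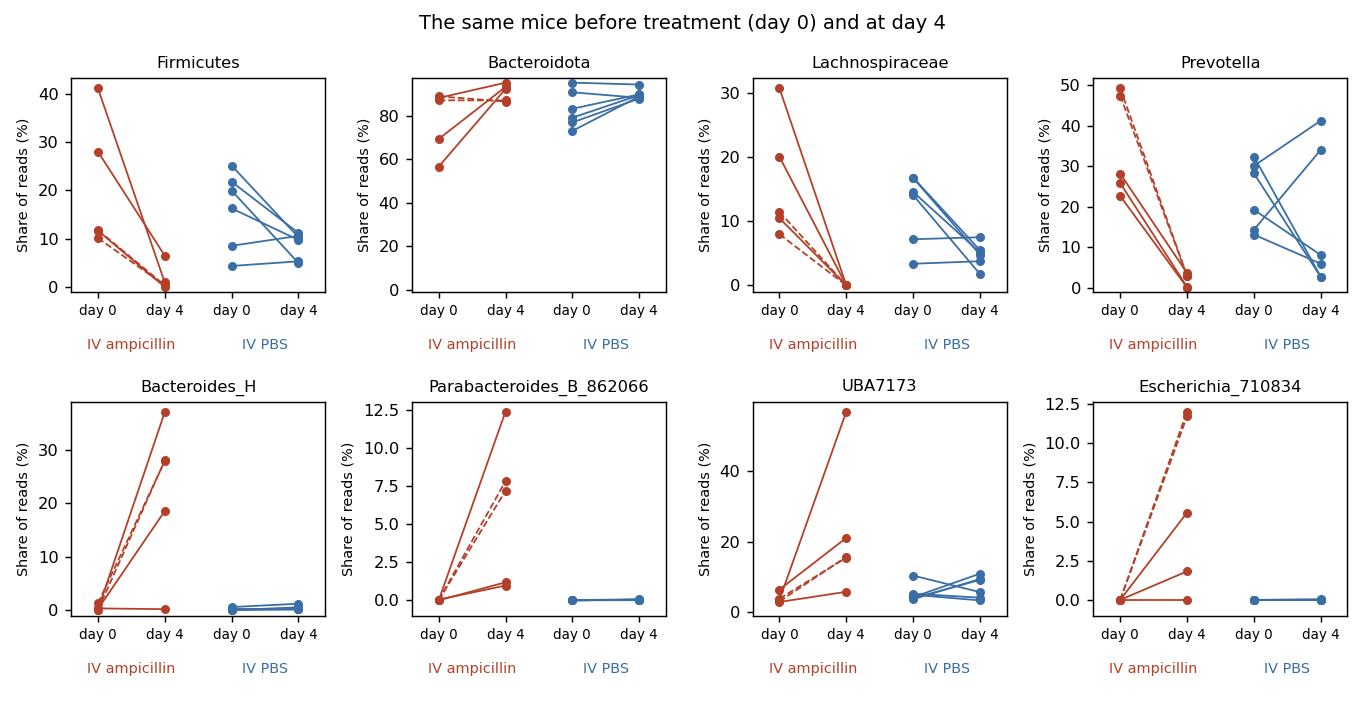
Each line joins day 0 and day 4 of 1 mouse, as share of 16S reads (%) on linear axes that differ between panels, with IV ampicillin (red) left of IV PBS (blue) and dashed lines for IV ampicillin replicates 3 and 4. Lachnospiraceae end at 0% in every IV ampicillin mouse, Prevotella end at or below 3.62%, and Escherichia_710834 start at 0% in all mice.

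Ampicillin by vein was set beside ampicillin by mouth, at the same dose, through the difference of the 2 antibiotic effects in the limma fit. By vein, Bacteroidota averaged 92.1% and Firmicutes 1.94%, and by mouth 3.42% ± 2.67 and 58.9% ± 50.9 (SD, n = 5), with Firmicutes between 1.08% and 98.8%. Oral PBS mice had 85.4% Bacteroidota and 14.0% Firmicutes (n = 5). Of 95 genera, 7 differed between routes in their change from PBS (7.37%). Positive values mean a change by vein above that by mouth.

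Of the genera that rose by vein, 3 had a higher change than by mouth: Parabacteroides_B_862066 by 7.41 ± 2.07 on the log2 scale (SE, limma adjusted p = 0.0182), Bacteroides_H by 6.71 ± 2.04 (adjusted p = 0.0292) and Ligilactobacillus by 6.23 ± 1.49 (adjusted p = 0.00683). Parabacteroides_B_862066 averaged 5.53% by vein and 0.0279% by mouth, and Bacteroides_H 21.0% and 0.160%. In the other direction stood genera that were high in some mice given ampicillin by mouth. Burkholderia, of the reagent list, averaged 0.0193% by vein and ranged from 0% to 96.6% by mouth (difference of -6.65 ± 1.83, SE, limma adjusted p = 0.0182). Unclassified CAG-552 averaged 0.0238% by vein and ranged from 0% to 36.8% by mouth (-5.82, limma adjusted p = 0.0292), and Pelethenecus averaged 0.0289% and 2.87% (-4.91, limma adjusted p = 0.0292). Velocimicrobium, a Lachnospiraceae genus, differed by -3.34 (limma adjusted p = 0.0312), being at 0 in every oral PBS mouse and at 0.165% ± 0.202 in IV PBS.

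IV vancomycin, a glycopeptide that also blocks the cell wall, was given by the same route, and it was set against the same 6 IV PBS samples. IV ampicillin and IV vancomycin mice were therefore compared directly. Firmicutes averaged 1.94% with IV ampicillin and 2.41% ± 2.70 with IV vancomycin (SD, n = 6), and Bacteroidota 92.1% and 77.2% ± 7.43. Of 95 genera, 4 differed (4.21%). Alistipes_A_871400 was at 0 with IV ampicillin and averaged 1.91% ± 1.14 with IV vancomycin (difference of -6.92 ± 1.21 on the log2 scale, SE, limma adjusted p = 1.43e-05). Mailhella, of the Desulfovibrionaceae, averaged 0.00949% and 0.238% (-3.47, limma adjusted p = 0.00116). Paramuribaculum averaged 2.89% with IV ampicillin and 0.00671% with IV vancomycin (6.25 ± 1.24, SE, limma adjusted p = 0.000116), and Muribaculum 5.63% and 0.538% (5.51 ± 1.41, SE, limma adjusted p = 0.00431). Bacteroides_H averaged 21.0% with IV ampicillin and 16.98% with IV vancomycin. On the log2(percent + 0.01) scale its difference had the opposite sign and did not pass (-0.62 ± 1.46, SE).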

How the data were processed

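Fecal DNA was amplified over the V4 region with 30 to 35 PCR cycles and sequenced on an Illumina MiSeq in 2 runs, per the labels' protocols. The deposited table gives a signal value per taxon and library, scaled by the authors so that each library sums to 100000; for read filtering, clustering and taxonomy the tools were not given in the sources used here. Values were divided by their library's total to give percent, and empty cells (11.6% of the table) were taken as 0. Every value above 0 was a whole multiple of a step in its library, to within 0.02 reads or a share of 1e-05, and reads are the smallest total that makes all values whole, so that a multiple of it cannot be told apart. In 183 of 198 libraries the smallest value was 2 reads. Bounds and limits use a floor of 3 reads.

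Libraries of 1 group with at least 1000 reads were treated as alike when a chi-square test gave p above 0.05, which held for 2 pairs at day 4. Samples carry different mouse names, and cage was not part of any test, so whether samples are independent beyond their names was not tested. Exact permutation p-values rest on the 4 and 6 samples compared. The limma p-values rest on spread within groups pooled over 89 day 4 samples. Genera, families and taxa present in at least 20% of 89 day 4 samples were tested with limma 3.58.1 (R 4.3.3) on log2(percent + 0.01), with 1 mean for each of 18 groups, a variance trend and Benjamini-Hochberg adjustment. Summary values were tested by exact permutation of 4 against 6 samples (scipy 1.17.1), adjusted over 7 values. Thinning used 100 draws of 3621 reads. The limma step was tested on simulated data.

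Genera named are those with a mean of at least 1% in either group, the 12 largest falls and 8 largest rises among called genera with a mean of at least 0.05%, and all called Bacteroidota genera; families from 0.5%, phyla from 0.1%, and the 5 largest route and drug differences each way. Other genera, species and libraries were named after their values were seen. The members, lists and tests were chosen with earlier results of these data known. The reagent list held 17 genera, of which 7 were in the table. Alternatives were the pseudocount, the presence filter, centring, thinning, sequencing run or replicate number as a block, run ok122 alone, change from day 0, both alike libraries kept, and leaving out each sample. Replicate numbers of the sheets were no pairing: deviations of same-numbered samples correlated at -0.0870 to 0.0633.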

Additional observations from a re-analysis of the deposited data

Results flagged for a closer look

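Single samples stood far from the rest of their group in 6 of 66 group values tested by Dixon's ratio, where chance flags about 1 in 20. In IV ampicillin replicate 5, Firmicutes were the highest of the group at 6.47% and Bacteroides_H was the lowest, at -2.36 on the log2(percent + 0.01) scale. Cryptobacteroides was highest in IV ampicillin replicate 2, at -1.55 on that scale, being at 0 in the other samples. Dysosmobacter was highest in the averaged IV ampicillin replicates 3 and 4, at -5.80, for the same reason. Bacteroidota were highest in IV PBS replicate 6, at 94.5%, and Escherichia_710834 was highest in IV PBS replicate 1, at -4.27 on the log2 scale.

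The change with ampicillin differed between vein and mouth in 7 genera by the limma contrast of the 2 changes. It was higher by vein for Parabacteroides_B_862066 (7.41 on the log2 scale), Bacteroides_H (6.71) and Ligilactobacillus (6.23). It was lower by vein for Burkholderia (-6.65), unclassified CAG-552 (-5.82), Pelethenecus (-4.91) and Velocimicrobium (-3.34).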

How the results depend on the processing

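Depth and the number of samples set the limits: 4 IV ampicillin samples, the shallowest of 3621 reads, from 1 run, and IV PBS samples from 2 runs. Run SB1 alone gave no value, since it held no IV ampicillin library, and the count tests planned on recovered reads (edgeR, DESeq2) were not run because the deposited values are not counts.

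Within run ok122 alone, 4 against 3 samples cannot go below an exact permutation p of 0.0571 for a difference in means, and no summary value passed. Firmicutes differed by -6.87 points, the Firmicutes to Bacteroidota log2 ratio by -4.49, the Shannon index by -0.909, Firmicutes taxa by -49.3 and Bacteroidota taxa by -15.1, and R2 was 0.412. As change from day 0, Firmicutes differed by -13.7 points and the Shannon index by -0.645, neither passing. At the level of families, the Shannon index differed by -0.026 and R2 was 0.254, neither passing.

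Leaving out each sample in turn gave -8.25 to -6.09 points for Firmicutes and -5.82 to -2.69 for the Firmicutes to Bacteroidota log2 ratio, the ratio losing its call without the same samples as Firmicutes. Without the averaged IV ampicillin replicates 3 and 4 the values were -6.21 and -4.45, neither passing. The Shannon index ran from -0.915 to -0.705, Firmicutes taxa from -47.4 to -39.6, Bacteroidota taxa from -15.5 to -12.7, R2 from 0.437 to 0.566 and Bacteroidota from 1.008 to 3.83 points, each on its side of the threshold. Genera called numbered 35 to 53, the highest without IV PBS replicate 6.

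The 40 genera called became 24 with centring within libraries (20 shared) and 23 as change from day 0 (18 lower, 5 higher, 19 shared). The cause of these differences was not tested. The replicate number as a block gave 42 calls (37 lower, 5 higher, 40 shared), and sequencing run as a block gave 46 (41 lower, 5 higher, 39 shared). No paired reading is made of the block, since the numbers do not pair the samples. Among named genera, 33 alternative values lost the call, 20 of them for CAG-485 and Cryptobacteroides, 8 gained it and none that was called reversed. Of the rest, 7 genera lost the call as change from day 0 and 3 with centring, as given beside each.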
